A study of Mus musculus with 2 samples.

Results

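The genes described here encode the core of antigen presentation by the major histocompatibility complex (MHC). H2-K1, H2-D1, B2m, Tap1, Tap2, Psmb8 and Psmb9 belong to the class I side, and H2-Aa, H2-Ab1 and Cd74 to the class II side. The members were taken by gene name from the non-control probes of the array, which gave 12 probes for 10 genes, out of 36315 genes and lincRNA intervals with a probe. On both arrays, 11 of the 12 probes exceeded background clearly in the ESlncRNA or the vector channel. They stood for 9 of the 10 genes, out of 19871 genes tested.

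The study compared ESlncRNA with vector on 2 two-colour arrays. ESlncRNA, also called lincRNA-EPS, is a noncoding transcript found in erythroid cells. In the first group, erythroid progenitors (lineage-negative cells) from C57BL/6 fetal livers at E14.5 had been transduced with ESlncRNA. In the second group the same kind of cells had been transduced with the vector alone. GFP-positive cells of both groups were collected by sorting. RNA of ESlncRNA cells was always labelled with Cy5 and that of vector cells with Cy3, so a dye effect of a probe cannot be told apart from the contrast. Whether the replicates were separate cultures is not given in the labels. The arrays lay on 1 slide, and the p-values cover only the spread between these 2 arrays, which may be technical. That spread is mostly pooled over all probes kept, so a p-value rests little on the SD printed beside it.

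In class I presentation, the proteasome cuts cytosolic proteins into peptides, a transporter pumps them into the endoplasmic reticulum, and a heavy chain with beta-2-microglobulin carries them to the surface of nearly all nucleated cells. In class II presentation, professional antigen-presenting cells load peptides made in endosomes onto an alpha and beta chain pair, which the invariant chain guards until then. Class I genes respond to interferon through IRF factors and NLRC5, and class II genes depend on the coactivator CIITA. Lineage-negative fetal liver cells hold erythroid progenitors along with other early blood cells.

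Promoter sequence was at hand for 7 of the 10 members, from the RefSeq table of assembly GRCm38.p6, in windows of 300 bases (250 before the start and 50 after it). It is shown because the class I heavy chains, their light chain and a class II chain hold a like-spaced pair of motifs. The last 180 bases before the annotated start of transcription follow, on the gene's own strand. Capitals mark, on either strand, TGACG (the core of the X2 box, bound by CREB-type factors), CCAAT (the Y box, bound by NF-Y), AANNGAAA (part of an interferon response element) and GGGNNTTCC (a kappa B site). Overlapping matches are joined. The motifs were chosen after the sequences were seen.
H2-K1, chr17:34000348-34000527, minus strand: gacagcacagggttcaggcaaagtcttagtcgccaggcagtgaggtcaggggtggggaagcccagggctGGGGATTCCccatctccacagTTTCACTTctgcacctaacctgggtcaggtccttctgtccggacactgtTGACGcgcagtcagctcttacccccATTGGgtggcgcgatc
H2-D1, chr17:35262914-35263093, plus strand: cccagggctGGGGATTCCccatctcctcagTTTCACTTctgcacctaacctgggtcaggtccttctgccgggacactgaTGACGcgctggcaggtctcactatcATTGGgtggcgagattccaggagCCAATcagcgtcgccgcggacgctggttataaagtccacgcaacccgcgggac
B2m, chr2:122147507-122147686, plus strand: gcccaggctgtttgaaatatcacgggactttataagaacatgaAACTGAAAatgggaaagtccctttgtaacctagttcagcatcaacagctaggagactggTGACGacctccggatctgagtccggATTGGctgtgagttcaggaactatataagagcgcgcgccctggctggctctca
H2-Aa, chr17:34287824-34288003, minus strand: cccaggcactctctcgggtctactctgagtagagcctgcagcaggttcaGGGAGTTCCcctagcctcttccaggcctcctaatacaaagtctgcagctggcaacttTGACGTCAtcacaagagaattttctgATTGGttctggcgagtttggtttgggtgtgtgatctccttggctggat
Tap1, chr17:34187376-34187555, plus strand: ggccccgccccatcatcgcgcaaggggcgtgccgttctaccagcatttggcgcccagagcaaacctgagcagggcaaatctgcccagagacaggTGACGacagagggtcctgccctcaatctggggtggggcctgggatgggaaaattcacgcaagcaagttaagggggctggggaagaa

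In H2-K1, H2-D1 and B2m, 20 bases separate TGACG from ATTGG, the Y box read on the other strand, and in H2-Aa 21 bases do. The table holds 2 starts of H2-K1, and the window of the outer one is shown. Of 32851 windows in the table, 0.384% hold this pair with a gap of 16 to 24 bases, and 0.0944% with a gap of 20. Alone, TGACG was in 20.8% of the windows, CCAAT in 37.4%, AANNGAAA in 23.9% and GGGNNTTCC in 5.82%. The windows of Tap1 and Psmb9 lie on opposite strands and overlap by 275 bases, so the stretch printed for Tap1 is largely that of Psmb9 as well. The window of Psmb8 holds none of these 4 motifs. A match is a description of the sequence and not a bound site. Tap2, H2-Ab1 and Cd74 are named only.

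Across the members, 7 of the 9 measured genes were lower in ESlncRNA cells, 1 was higher and 1 did not pass (limma, adjusted p under 0.05). Of all genes tested, 36.8% were lower and 26.3% higher by the same rule, so a call in itself sets a member little apart. Psmb8 and Psmb9 were at least 2-fold lower on both arrays, which 8.1% of all genes were. With median centring in place of loess, 3 class I members were lower and 3 higher, and each class II call was the same. Median centring called 12511 of all 19871 genes higher and 3634 lower, against which every count given with it below is to be read. In these sorted populations, fewer cells of a type and less RNA per cell cannot be told apart. The median log2 ratio of all genes was -0.03. Values below are log2 intensities per array after loess and Aquantile, replicate 1 then replicate 2, and log2 ratios of ESlncRNA over vector as the mean of 2 arrays ± SD (n = 2). A probe's intensity has no common scale with that of another probe. Adjusted p-values come from limma with Benjamini-Hochberg adjustment over the 26791 probes kept.

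**Figure D1:**
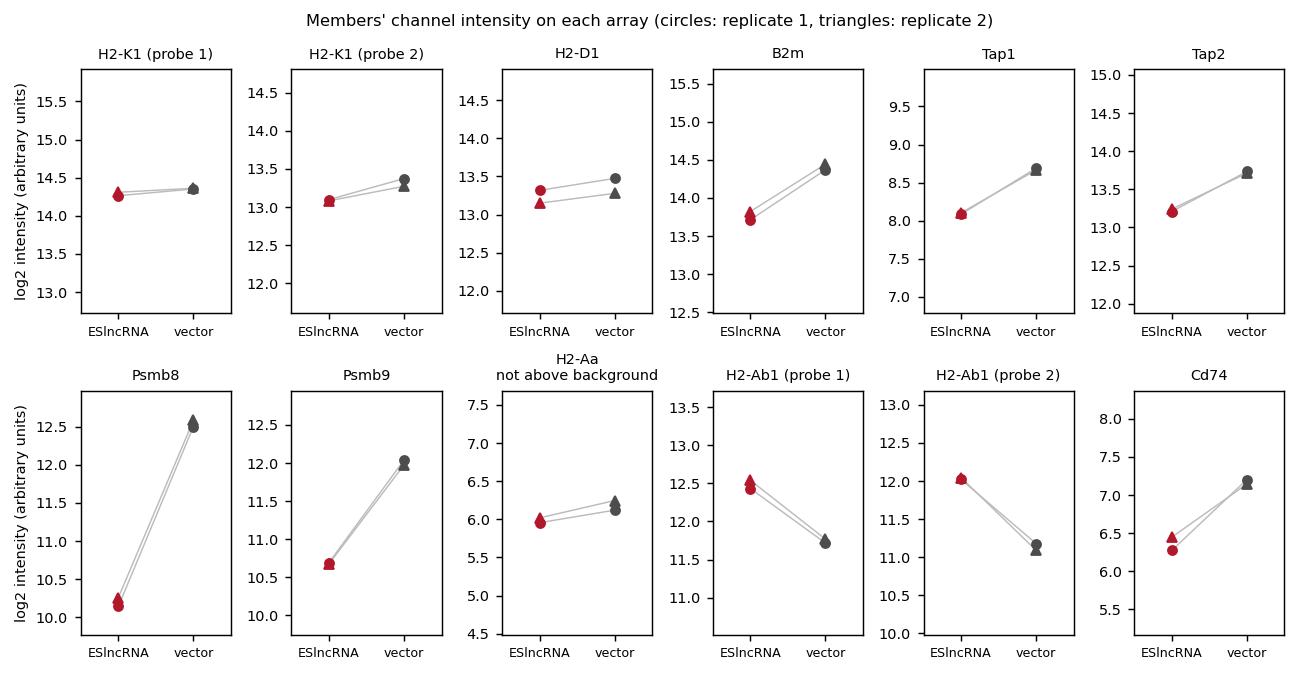
Log2 intensity of each member probe in ESlncRNA (left, red) and vector (right, grey) RNA on each of 2 arrays, with a line joining the channels of an array. Every panel spans the same number of log2 units around its own mean. Psmb8 and Psmb9 show the steepest differences, and the 2 H2-Ab1 probes slope the other way.

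With loess, 2 catalytic subunits of the immunoproteasome were the most lowered of the members, although Cd74 lay below Psmb9 with the processed signals and with normexp offset 0. Psmb8, which replaces Psmb5 in the immunoproteasome, had log2 intensities of 10.14 and 10.26 in ESlncRNA RNA, against 12.50 and 12.58 in vector RNA. It was 5.07-fold lower (-2.34 ± 0.025, adjusted p = 1.7e-07). Its probe lies on mm9 chr17:34337771-34337830. Its log2 ratio was -2.36 on array 1 and -2.32 on array 2.

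Psmb9, which replaces Psmb6, had 10.69 and 10.68 in ESlncRNA RNA, against 12.04 and 11.98 in vector RNA. It was 2.50-fold lower (-1.32 ± 0.034, adjusted p = 1.91e-06), from a probe on mm9 chr17:34319174-34319233. Both genes kept their direction with median centring, at -1.79 and -0.77, and with Agilent's processed signals, at -2.21 and -1.24. They lie beside Tap1 in the class II region of the MHC on chromosome 17, and their probes are 18.5 kb apart.

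The constitutive counterparts of these subunits were called slightly higher. Psmb5 was at 0.25 (adjusted p = 0.00403) and Psmb6 at 0.25 (adjusted p = 0.00462). With the processed signals Psmb5 lost its call, at 0.07 (adjusted p = 0.257). The log2 ratio of Psmb8 minus that of Psmb5 was -2.62 on array 1 and -2.57 on array 2. With median centring this difference was -3.07, and with the processed signals -2.28. That of Psmb9 minus Psmb6 was -1.58 and -1.55, with -1.96 and -1.46 under the same 2 alternatives. Psmb10, the third inducible catalytic subunit, was at -0.35 (adjusted p = 0.00101) and its counterpart Psmb7 at -0.18 (adjusted p = 0.0185), a difference of -0.17. Psmb7 lost its call with the processed signals (-0.02, adjusted p = 0.681) and with normexp offset 0 (adjusted p = 0.0618). With median centring Psmb10 and Psmb7 were at 0.51 and 0.58, above 0. Psmb7 was named here as a counterpart after its value was seen.

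Of the 14 constitutive subunits of the 20S proteasome, 4 were higher, 4 lower and 6 did not pass, with a median of 0.06. With median centring all 14 were higher, at a median of 0.88 against 0.34 for all genes. The lowest were Psmb1 at -0.31, Psma6 at -0.27 and Psma7 at -0.24, all 3 of which lie above 0 with median centring. Among the 6 other immunoproteasome and activator subunits, 1 was higher, 3 were lower and 2 did not pass, with a median of -0.12. With median centring all 6 were higher, so the direction of the 3 lower ones rests on the normalization. Psme3, the nuclear PA28 activator subunit, was higher at 0.68 (adjusted p = 4.14e-05). Psme1 and Psme2, the interferon-inducible PA28 subunits, were at -0.37 and -0.20, Psmb10 as above, Pomp, the assembly chaperone, at -0.04 and Psme4 at 0.09. Pomp and Psme4 did not pass.

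With loess, both chains of the peptide transporter were lower, by similar amounts. Tap1 had 8.09 and 8.10 in ESlncRNA RNA, against 8.69 and 8.67 in vector RNA, on mm9 chr17:34330854-34330913. It was 1.50-fold lower (-0.58 ± 0.030, adjusted p = 9.33e-05). Its probe was spotted 10 times, and the spots of an array had an SD of 0.10 and 0.11 on the log2 scale. On both arrays all 10 spots lay below 0, between -0.75 and -0.38. Tap2 had 13.21 and 13.24 in ESlncRNA RNA, against 13.73 and 13.71 in vector RNA, on mm9 chr17:34353116-34353175. It was 1.41-fold lower with loess (-0.50 ± 0.039, adjusted p = 0.000208) but at 0.22 with median centring. Tap1 stayed below 0 there, at -0.26.

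The class I heavy chains differed little between the groups. H2-K1 had 14.26 and 14.31 in ESlncRNA RNA, against 14.35 and 14.36 in vector RNA. Its log2 ratio was -0.07 ± 0.025 (95% interval -0.19 to 0.05, adjusted p = 0.247), on mm9 chr17:34133055-34133114. The 10 spots of this probe, 8 of them unmarked on array 1, had an SD of 0.07 on array 1 and 0.06 on array 2, larger than the difference between the arrays. A second H2-K1 probe, on mm9 chr17:34133984-34134043, was at -0.23 ± 0.060 (adjusted p = 0.00726). It is close in sequence to a probe of another transcript on the array, with 44 identical bases of 54 aligned, so that transcript may share its signal. H2-D1 had 13.32 and 13.15 in ESlncRNA RNA, against 13.47 and 13.28 in vector RNA, on mm9 chr17:35403886-35403945. It was lower by a small amount (log2 ratio -0.14 ± 0.020, adjusted p = 0.0387), and the values of the groups overlapped across arrays. This call was lost under 6 of the alternatives tried. With median centring H2-K1 and H2-D1 were at 0.73 and 0.56, above 0 and above the all-gene median of 0.34, so that neither has a direction that holds across scalings.

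B2m, the light chain that every classical class I molecule needs, had 13.71 and 13.82 in ESlncRNA RNA, against 14.37 and 14.44 in vector RNA, on mm9 chr2:121978401-121978460. It was 1.56-fold lower with loess (-0.64 ± 0.024, adjusted p = 5.9e-05) and at 0.14 (adjusted p = 0.11) with median centring, below the all-gene median there. The ratio of H2-K1 was higher than that of B2m by 0.57 on each array, and that of H2-D1 by 0.50 and 0.49. With median centring these differences were 0.59 and 0.42, and with the processed signals 0.57 and 0.50. The second H2-K1 probe, at -0.23 with loess, also lay above B2m. These 3 genes hold the pair of motifs 20 bases apart in their promoters, and whether the pair bears on their ratios was not tested.

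**Figure D2:**
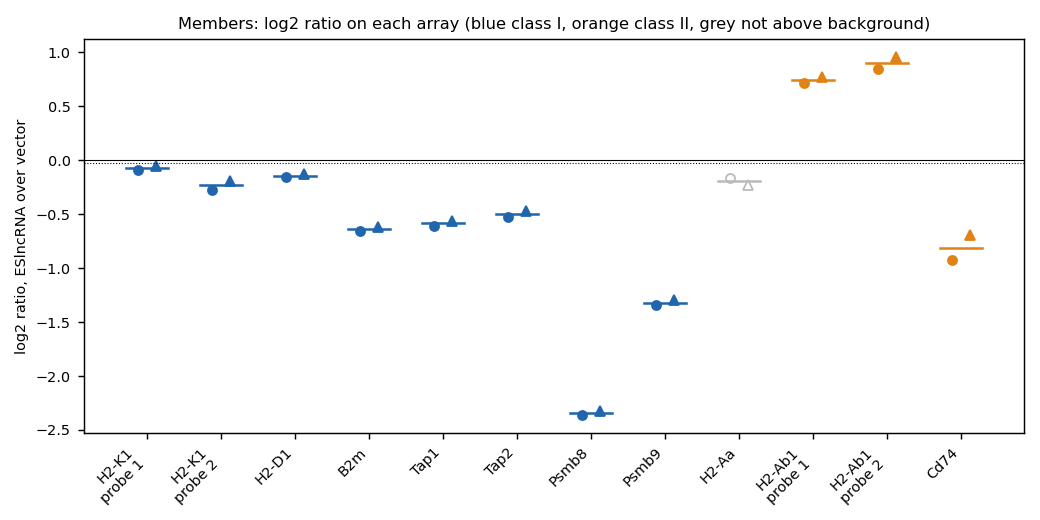
Log2 ratio of ESlncRNA over vector for each member probe, with circles for replicate 1, triangles for replicate 2 and a bar for their mean. The dotted line is the median of all genes. All class I probes lie below 0, from -0.07 for H2-K1 to -2.34 for Psmb8, with loess, although H2-K1, H2-D1, B2m and Tap2 lie above 0 with median centring. The H2-Ab1 probes lie at 0.74 and 0.90.

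The class II members did not move as a group. H2-Ab1, the beta chain of the I-A molecule, had 12.43 and 12.54 in ESlncRNA RNA, against 11.72 and 11.77 in vector RNA, on mm9 chr17:34406296-34406355. It was 1.67-fold higher (0.74 ± 0.040, adjusted p = 3.11e-05), and was above 0 under every scaling tried, between 0.74 and 1.35. Its second probe was at 0.90 ± 0.079 (adjusted p = 1.76e-05). The H2-Ab1 probes share 51 positions and differ at 1 of them, so they are not separate measurements. The stretch around that position is shown for the first and the second probe, with the differing base in capitals.
H2-Ab1 probe 1: agattacaaataaacgagacTcagactctg
H2-Ab1 probe 2: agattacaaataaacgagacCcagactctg

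H2-Aa, the alpha chain that pairs with the product of H2-Ab1, was not well above background in either channel of either array. Its log2 intensities were 5.96 and 6.02 in ESlncRNA RNA, against 6.12 and 6.25 in vector RNA, on mm9 chr17:34421285-34421344. The median spot signal of its probe was 45.8 and 61.6 in ESlncRNA RNA, over local backgrounds of 47 and 56, against 25.1 and 36.1 in vector RNA, over 18 and 18. The array thus gave signal for one chain of the I-A pair and none that could be measured for the other.

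Cd74, the invariant chain, was dim. It had 6.27 and 6.45 in ESlncRNA RNA, against 7.20 and 7.14 in vector RNA, from a probe spanning positions 60972075 to 60972132 of mm9 chromosome 18. It was 1.76-fold lower (-0.81 ± 0.16, adjusted p = 8.67e-05), the widest spread among the members. The probe was well above background on 1 array in ESlncRNA RNA and on both in vector RNA, so the size of this difference is uncertain. Its log2 ratio was -1.60 with the processed signals, -1.51 with normexp offset 0, -1.02 without background subtraction and -0.69 with median centring. H2-Ab1 stood above Cd74 by 1.56 on the log2 ratio scale, and by 1.76 to 2.50 under those 4 alternatives.

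With 2 class II genes measured and moving in opposite directions, their median of -0.03 describes neither. The class II median minus the class I median was 0.50 on array 1, 0.60 on array 2 and 0.55 on their mean. This difference was between 0.09 and 1.33 under the alternatives, and the largest value came from leaving Cd74 out by its dimness.

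**Figure D3:**
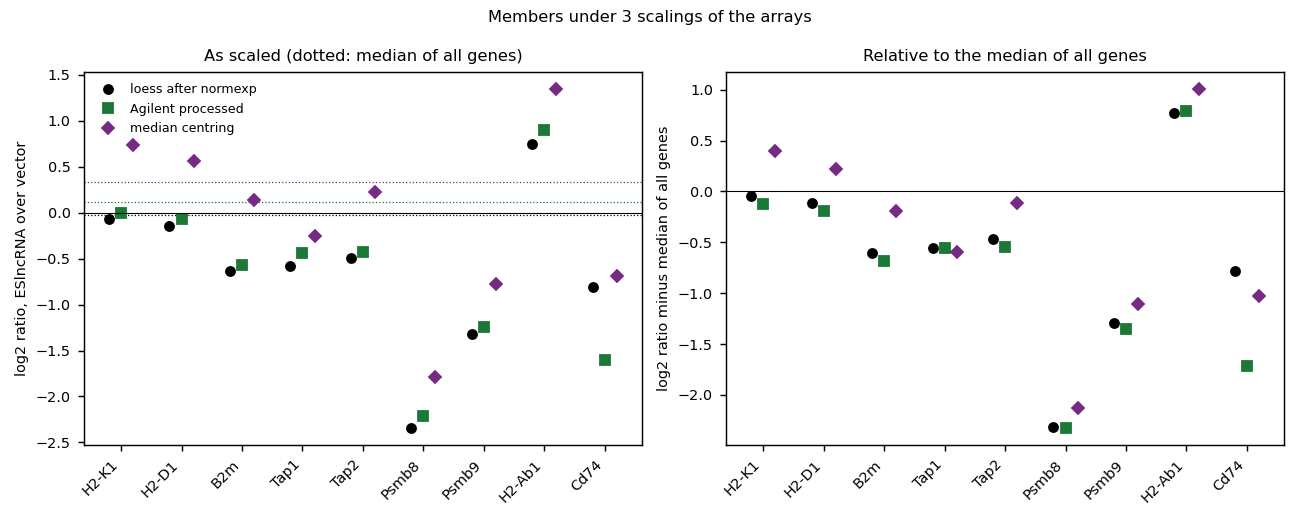
Mean log2 ratio of each measured member, ESlncRNA over vector, under loess after normexp, Agilent's processed signals and median centring, as scaled (left) and minus the all-gene median of the same scaling (right). H2-K1 moves from -0.07 with loess to 0.73 with median centring, whereas Psmb8 stays between -2.34 and -1.79.

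The direction of the bright class I members depends on how the arrays are scaled. Median centring puts the median of the 19871 genes at 0.34, and the processed signals put it at 0.11. Relative to that median, B2m was at -0.61 after loess, -0.20 after median centring and -0.69 in the processed signals. Tap2 was at -0.47, -0.12 and -0.55, Tap1 at -0.55, -0.60 and -0.55, Psmb9 at -1.29, -1.11 and -1.36 and Psmb8 at -2.31, -2.13 and -2.32. H2-K1 was at -0.04, 0.39 and -0.12, and H2-D1 at -0.11, 0.22 and -0.19. H2-Ab1 was at 0.77, 1.01 and 0.79. Of the class I members, 7 of 7 lay below the median of all genes under loess or the processed signals, and 5 of 7 under median centring.

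Other genes of the class I pathway were counted from lists of their roles. Of 29 other class I and class Ib heavy chains on the array, 18 were measured. With loess 15 of them were lower, 0 higher and 3 did not pass, with a median of -0.39, and with median centring 6 were lower and 5 higher. Cd1d1, which presents lipids to NKT cells, was 2.52-fold lower (-1.33, adjusted p = 1.74e-06). Hfe, the class I-like regulator of iron uptake, and Fcgrt, the neonatal Fc receptor, were not well above background in ESlncRNA RNA. They were at least 2.43-fold and at least 1.69-fold lower. These 3 stayed below 0 with median centring. At the upper end were H2-K2 at 0.03 and Mr1, which presents vitamin B metabolites, at -0.05, neither of which passed. Close copies among the H2-Q and H2-T genes may share signal, so their separate values are uncertain.

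Of 16 genes of peptide loading and trimming, 14 were lower with loess, 0 higher and 2 did not pass, with a median of -0.33. With median centring 1 was lower and 8 were higher. The list's median was then 0.19, which is 0.15 below that of all genes, against 0.30 below it with loess. Calr, calreticulin of the loading complex, was 2.59-fold lower (-1.37, adjusted p = 1.48e-06) and at -0.55 with median centring. Hspa5, the lumenal chaperone BiP, and Pdia3, the disulfide isomerase ERp57, were at -0.76 and -0.58 with loess but at 0.11 and 0.10 with median centring. The highest were Tpp2, a cytosolic peptidase, at 0.03 and Canx, calnexin, at -0.04, neither of which passed.

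Of 8 other class II chains and chaperones on the array, 5 were measured. Of these, 4 were lower, 0 higher and 1 did not pass, with a median of -1.75, against -0.03 for all genes. H2-DMb1 and H2-DMa encode the DM molecule, which removes the invariant chain peptide. H2-DMb1 was 4.33-fold lower (-2.11, adjusted p = 3.3e-07) and H2-DMa 3.36-fold lower (-1.75, adjusted p = 8.48e-07). H2-Oa, a chain of the DM inhibitor DO, was 3.95-fold lower (-1.98, adjusted p = 3.17e-07). H2-Ob, its partner, was not well above background in ESlncRNA RNA and was at least 1.76-fold lower (adjusted p = 1.42e-05). These 4 kept their direction under each scaling tried. H2-Ob was kept through the vector channel alone, so its direction follows in part from the filter. H2-Eb1, the I-E beta chain, was at -0.10 (adjusted p = 0.125) and not well above background in ESlncRNA RNA. H2-Ab1 was thus the one gene called higher among the 7 class II chains, chaperones and invariant chain measured.

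**Figure D4:**
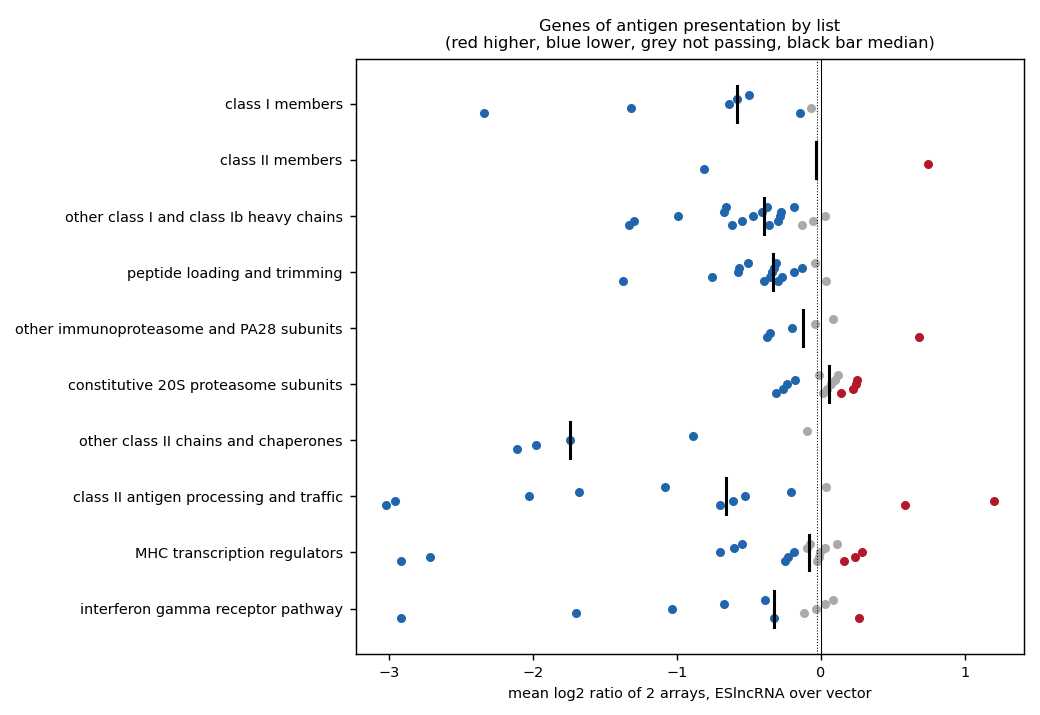
Mean log2 ratio of every measured gene of each list, ESlncRNA over vector, from the fit with loess. Each point is a gene, the black bar is the list's median and the dotted line the median of all genes. With this scaling the constitutive proteasome subunits sit around 0 (all 14 above 0 with median centring) while Psmb8 and Psmb9 among the class I members lie at -2.34 and -1.32.

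Of 12 measured genes of class II antigen processing and traffic, 9 were lower, 2 higher and 1 did not pass, with a median of -0.66. The list also counts the costimulatory genes Cd80 and Cd86, both among the 9 lower, and Cd40, which was not well above background. Ctsh, cathepsin H, was 8.14-fold lower (-3.02, adjusted p = 1.72e-07). Ctss, cathepsin S, which trims the invariant chain, was 7.79-fold lower (-2.96, adjusted p = 1.08e-06). Lgmn, an asparaginyl endopeptidase of endosomes, was 4.08-fold lower (-2.03). Ifi30, the thiol reductase GILT, was higher at 1.20 (adjusted p = 2.75e-06), and Marchf8, a ubiquitin ligase, at 0.58 (adjusted p = 8.71e-05). These 5 kept their direction with median centring, where 5 of the 12 were lower and 4 higher.

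The transcription factors of the MHC were measured on the same arrays. Of 18 measured, 8 were lower, 3 higher and 7 did not pass, with a median of -0.08, and with median centring 5 were lower and 11 higher. Ciita did not exceed background in either group. Nlrc5, the class I coactivator, was not well above background in ESlncRNA RNA and was at least 1.48-fold lower (adjusted p = 7.33e-05). Irf1, an interferon-induced activator of class I genes, was 7.58-fold lower (-2.92, adjusted p = 1.1e-07). Irf8, a factor of myeloid and B cells, was 6.59-fold lower (-2.72) and Nfkb1 1.62-fold lower (-0.70). Irf9 and Rfxap, a subunit of the X-box factor RFX, were higher at 0.29 and 0.23.

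Of 11 measured genes of the interferon gamma receptor pathway, 6 were lower, 1 higher and 4 did not pass, with a median of -0.33. With median centring 4 were lower and 6 higher. Beside Irf1, Ptpn6, a phosphatase of blood cells, was 3.26-fold lower (-1.71) and Socs1, the feedback inhibitor of JAK kinases, 2.05-fold lower (-1.04). Ptpn2 was higher at 0.27 (adjusted p = 0.00343), and Jak2 was at 0.09 and did not pass. Ifng itself did not exceed background in either group.

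Genes of other blood cells differed between the same samples, and their part in the results on the members was not tested. With loess 16 of 16 pan-leukocyte genes were lower, with a median of -2.57, and with median centring 14 were lower and 1 higher. Their summed intensity was 71490 and 74080 in ESlncRNA RNA, against 258600 and 268900 in vector RNA. Lsp1 and Fcer1g were the lowest of them, at -4.08 and -3.82. Of the granulocyte genes 14 of 14 were lower (13 with median centring, and 1 higher), with a median of -4.34 and sums of 70570 and 84360, against 1187000 and 1321000 in vector RNA. S100a8 and S100a9, at -5.43 and -5.25, stood lowest. Of 13 measured macrophage genes 13 were lower, also with median centring, with a median of -0.99 and sums of 2214 and 2159, against 16070 and 15400 in vector RNA. Of the 13, 7 were not well above background in ESlncRNA RNA and were kept through the vector channel alone. The count of lower macrophage genes thus follows in part from the filter, under median centring as well. The size of the macrophage median is also uncertain. It was -2.80 with the processed signals and -2.31 with normexp offset 0. Sirpa was at -3.79 and Csf1r at -3.31. C1qa, Timd4 and Cd163 did not exceed background in either group.

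Markers of class II presenting lymphoid and dendritic cells were counted next, and those of B cells were sparse. Of 12 B cell genes 5 were measured, 3 higher, 1 lower and 1 not passing, with a median of 0.16. Vpreb3, among the 3 higher at 0.19, was kept through the ESlncRNA channel alone. Its direction thus follows in part from the filter. The defining genes Cd79a, Ms4a1 and Blk did not exceed background in either group. The summed intensity of the 5 measured genes was 967.8 and 917.4 in ESlncRNA RNA, against 2707 and 2540 in vector RNA. Cd79b, which makes up most of the vector sum, was at -3.54 and Vpreb1 at 0.31. Of 11 dendritic cell genes 8 were measured, 6 lower, 1 higher and 1 not passing (5 lower and 3 higher with median centring). Their median was -0.46, with sums of 44380 and 49540, against 55050 and 57750 in vector RNA. The median came to -1.58 with the processed signals and -1.09 with normexp offset 0. Of the 8 genes, 3 were not well above background in ESlncRNA RNA and were kept through the vector channel alone. Flt3, also a receptor of early progenitors, was at -2.91 and Clec10a was at least 1.24-fold lower (-0.64). Siglech, with mean log2 intensities of 15.46 in ESlncRNA and 15.69 in vector RNA, made up most of each dendritic cell sum. Its log2 ratio was -0.23. Cd209a and Xcr1 were not well above background.

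Markers of other cell types were counted likewise. Of 19 erythroid genes 14 were higher, 2 lower and 3 did not pass, with a median of 0.84 (17 higher and 0 lower with median centring), led by Trim10 at 1.32 and Epb42 at 1.21. Their sums were 758900 and 683700 in ESlncRNA RNA, against 477100 and 408900 in vector RNA, and 0 of the 19 were below background in every channel. Of 11 T and NK cell genes 5 were measured, 3 lower, 1 higher and 1 not passing, with a median of -0.87. Nkg7 was at -2.63, Lck at -0.91 and Cd3e, the gene called higher, at 0.32. The other 6, with Cd3d, Cd3g and Cd8a among them, did not exceed background in either group. Of 10 endothelial genes 8 were lower and 2 did not pass (8 lower and 2 higher with median centring), with Stab2 at least 3.64-fold and Cdh5 at least 1.90-fold lower. Of these 10 genes, 6 were not well above background in ESlncRNA RNA and were kept through the vector channel alone. All 6 are among the 8 lower, so that count follows in part from the filter. The endothelial median was -0.98, but -2.47 with the processed signals and -1.70 with normexp offset 0. Of 10 hepatocyte genes 8 were lower and 2 did not pass (6 lower and 1 higher with median centring), with a median of -0.51, Trf at -2.91 and Ahsg at -1.64. The hepatocyte median came to -1.07 with the processed signals and -0.90 with normexp offset 0. Of the 10 hepatocyte genes, 2 were not well above background in ESlncRNA RNA.

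**Figure D5:**
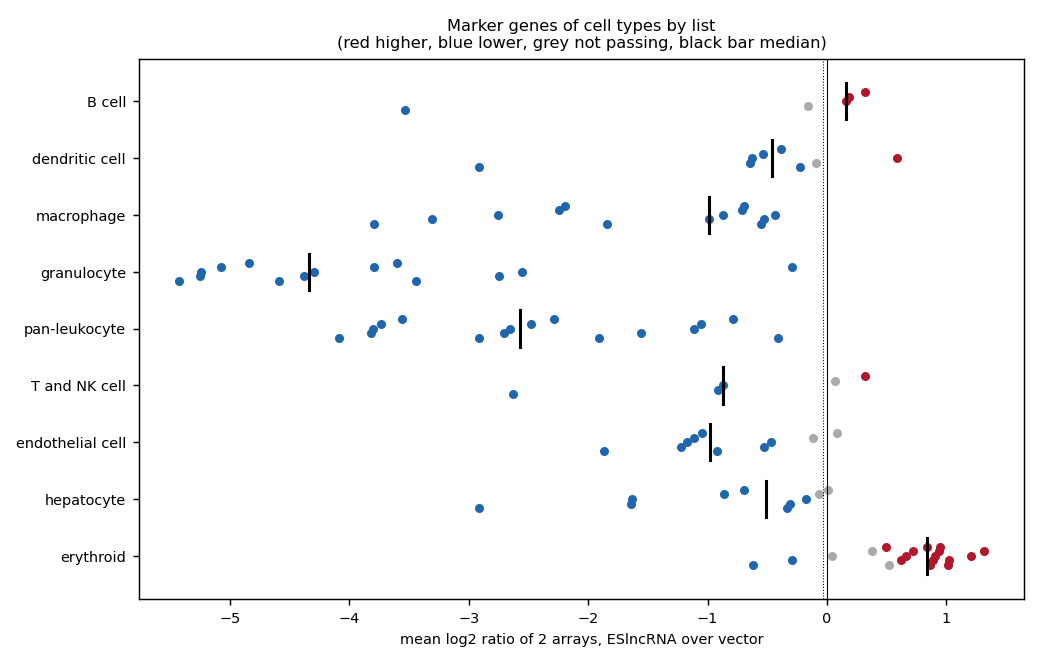
Mean log2 ratio of every measured marker gene, ESlncRNA over vector, from the fit with loess, by cell type. Points are genes and black bars medians. Granulocyte, pan-leukocyte and macrophage genes all lie below 0 here, with medians of -4.34, -2.57 and -0.99 (1 granulocyte and 1 pan-leukocyte gene were called higher with median centring), and the erythroid median lies at 0.84. Of the 13 macrophage genes, 7 were kept through the vector channel alone.

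Genes around the members in the MHC were counted as well. Between the outermost member probes, mm9 chr17:34133055-35403945, 75 of 105 genes were measured, lincRNA intervals left out. Without the members, 15 of 68 genes were higher, 28 lower and 25 did not pass, with a median of -0.10, where 26.3% of all genes were higher and 36.8% lower. With median centring 40 were higher and 14 lower. The interval's lowest genes other than members were Lst1, a leukocyte transcript, 10.6-fold lower (-3.40), Gpsm3 at -2.57 and Ltb, lymphotoxin beta, at -2.42. Its highest were Ly6g5b at 0.53 and Ring1, a Polycomb subunit, at 0.35. These 5 were named after their values were seen. Tap2 was called lower with a log2 ratio of -0.50 while Psmb8, whose probe lies 15.3 kb away, was at -2.34.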

How the data were processed

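RNA of ESlncRNA (Cy5) and vector (Cy3) cells was hybridised to 2 two-colour arrays, with an input of 100 ng for replicate 2 per the labels. Per the file headers, Agilent Feature Extraction 10.1.1.1 quantified the scans. The deposited spot intensities, the mean signal and the median local background of each channel, were uncorrected. Alternatives were the deposited processed intensities, from which Feature Extraction had subtracted background and removed dye bias per the file headers, and the authors' deposited log2 values, made with limma per the submitters' processing notes. The scale and direction of those log2 values came from their correlation (r rounds to 1 on both arrays) with loess ratios made here without background subtraction. Their medians were -0.02 and -0.01. The deposited log10 ratios served only as a check of direction. Median spot signals were 67.8 and 76.3 (ESlncRNA) and 35.9 and 39.5 (vector).

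Background correction used normexp (offset 50). Loess normalization within each array followed, leaving out control spots and spots marked as outliers, in R 4.3.3 with limma 3.58.1. Repeated spots were averaged. A probe was kept if either channel was well above background on each array, which left 26791 of 55681. Where only 1 group's channel was well above background, the direction of the ratio follows in part from this filter. A linear model with 1 residual and 5.27 prior degrees of freedom was fitted over all of them, with Benjamini-Hochberg adjustment, and a gene is represented by its brightest probe. The steps were also run on simulated data in which few probes changed, so that run cannot show how loess behaves where many genes differ. A fold written "at least" compares the bright channel with the dim signal or, where higher, the lowest well-above-background signal, and is open to dye bias. Probe coordinates are those of the array files (mm9), for which no annotation was used here. Promoters are on GRCm38.p6.

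The members and lists were chosen with earlier results of these data known. Every probe of each member is named. From each pathway list the 3 lowest and 2 highest measured genes are named, with Ciita, Nlrc5 and Irf1, and from each marker list the 2 of largest absolute log2 ratio. Some others, such as Siglech, Cd3e and Vpreb3, were named outside this rule. A gene that this rule also names is not reported here. The ratio pairs the channels of an array. The alternative without this pairing, and those of background, scaling, filter and probe choice, are given in the closing section.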

Additional observations from a re-analysis of the deposited data

How the results depend on the processing

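Of the results computed again under the alternatives, 153 values were counted as kept, and the others follow. A member's log2 ratio was kept if its direction and side of the threshold held, whatever its size, as for Cd74 at -0.81 and -1.60. Counts and medians were kept within a set margin. The 5224 higher genes became 3543 with the authors' deposited log2 values and still counted as kept. Leaving out 1 of the 2 arrays could not take a value beyond its SD, so values kept there are no evidence of stability. With median centring B2m was at 0.14, H2-D1 at 0.56, H2-K1 at 0.73 and Tap2 at 0.22, all reversed. There 3 class I members were lower and 3 higher, 12511 genes were higher and 3634 lower, the class I median was 0.14 (-0.58 with loess) and the class II minus class I median was 0.18. That difference was 0.093 with the processed signals, 0.27 with normexp offset 0, 0.39 with no filter on background and 1.33 where both channels had to be above background. The processed signals gave 4707 lower genes, a class I median of -0.44 and an all-gene median of 0.11, which was 0.34 with median centring. Class II members called lower were 2 with no filter, as H2-Aa entered at -0.20 (adjusted p = 0.0218), and 0 with both channels above background, as Cd74 then dropped out. H2-D1 lost its call with the processed signals (adjusted p = 0.207), normexp offset 0 (0.0925), no background subtraction (0.0576), no filter (0.0804) and the authors' deposited log2 values (0.0547). H2-K1 passed as the mean of its probes (-0.15, adjusted p = 0.0255). Without the replicate block, that is with channels unpaired, 3447 genes were higher and H2-D1 did not pass (adjusted p = 0.275), and no other call on a member changed. Leaving out 1 array gave a class II minus class I median of 0.50 to 0.60, with no test, since 1 array leaves no residual degrees of freedom and no count of calls. The slide as a block was not run, because both arrays lay on 1 slide. Signal over background limits H2-Aa and Cd74.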
